A study of Mus musculus with 12 samples.

Results

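Krüppel-like factors are transcription factors that bind CACCC boxes and related GC-rich elements through zinc fingers at the end of the protein. The fingers are much alike across the family and the related SP factors, while the rest of the protein differs and recruits coactivators or corepressors. Members are known for switching cells between growth, quiescence and differentiation, and several are induced within hours by serum, cytokines or hormones. The 10 genes described here are Klf2, Klf3, Klf4, Klf5, Klf6, Klf7, Klf9, Klf10, Klf11 and Klf13. They were taken by symbol, with earlier results of these data known. All 10 were measured, each by 1 transcript cluster of the array, among 19938 genes tested.

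The cells were NIH3T3, an established line of mouse fibroblasts, sorted for G1. They were kept in 1 mM DFMO, an inhibitor of ornithine decarboxylase that depletes polyamines, for 12, 24, 48 or 96 h, and the study asked how transcription responds to that depletion. Untreated cells and cells of 24 h had 3 arrays each, and the other times had 2, all labelled biological replicates. The untreated arrays stand for 0 h, so time in culture and exposure to the drug cannot be told apart in any comparison.

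The median log2 value of an array was 4.13 to 4.20, and Pearson r over all genes between replicate arrays was 0.994 to 0.998. Of 15 fibroblast markers, 14 were measured, with a median untreated level of 8.41 and Vim highest at 12.30, while Lum and untreated Dcn lay at the bottom of the scale. The summed log2 level of these 14 ran from 123.69 to 124.53 on untreated arrays and from 123.88 to 124.14 at 96 h. In that sum rises and falls of single markers offset each other. At 96 h 2 of the 14 rose and 6 fell, among them Thy1, from 8.32 to 5.97, and Dcn, up from 3.72 to 8.09. Median untreated levels of endothelial, epithelial, leukocyte and adipocyte markers were 3.53, 3.50, 3.57 and 3.56. Of their 40 measured members, Tek, Cdh1 and Lyz2 (from 4.34 to 6.25) rose at 96 h and Krt14 fell, from 8.83 to 7.01. Lpl, on the adipocyte list, also lay far above the median of its list, at 7.72 in untreated cells. It was 7.30 at 96 h and not called. The part of other cells in the results below was not tested. In such bulk RNA, fewer cells with a transcript and less of it per cell cannot be told apart.

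A gene was called when limma's p, adjusted by Benjamini and Hochberg over all 19938 genes, was under 0.05. At 96 h, Klf6 and Klf7 rose, Klf5 fell and the other 7 factors did not pass. Klf6 gave the largest change of the 10, 1.86-fold. At 12, 24 and 48 h no factor was called. The share of all genes called was 0% at 12 h, as it was (0%) at 24 h. It was 5.82% at 48 h (2.65% higher and 3.17% lower) and 21.9% at 96 h (11.8% higher and 10.1% lower). Thus 3 of 10 factors were called at 96 h in a comparison that called 21.9% of all genes. Counting an unadjusted p under 0.05 instead, 6 of the 10 passed at 96 h, against 30% of all genes. At 12, 24 and 48 h that count was 1, 1 and 2 of 10, against 3.72%, 7.92% and 19.8% of all genes. Genes with a mean of at least 5, as 9 of the 10 factors had, were called more often at 96 h (48.6% when tested alone). Their share by unadjusted p was not computed, so 6 of 10 cannot be read as an excess. The median log2 change of the 10 factors was 0.02 at 12 h and 0.11 at 24 h. It was 0.14 at 48 h and -0.09 at 96 h, and over all genes the 4 medians were -0.01, -0.02, -0.02 and 0.00.

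**Figure D1:**
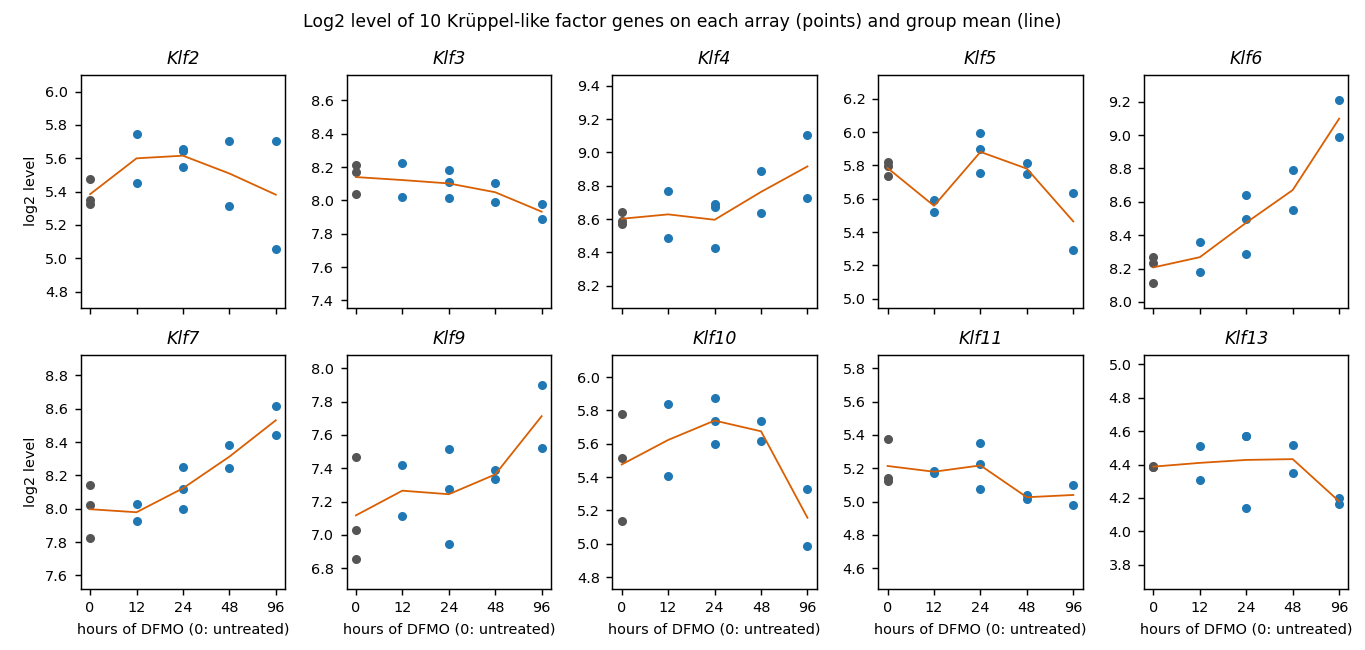
Log2 level of each of the 10 factors on every array (points; grey for untreated, blue for DFMO) with the group mean (line), against hours of DFMO drawn at even spacing. Every panel spans the same number of log2 units around the midpoint of its gene's lowest and highest values. Klf6 and Klf7 are highest on both 96 h arrays, while Klf2 at 96 h is spread between 5.06 and 5.71.

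Because Klf6 and Klf7 were both called higher, the 250 bases before 1 annotated start of each are shown, from RefSeq on assembly GRCm38.p6. Capitals mark the family's own elements, the CACCC box (CACCC) and the GC box (CCGCCC), searched on both strands, so that they can also read GGGTG and GGGCGG. The Klf6 window is chr13:5861239-5861488 on the plus strand, and the Klf7 window is chr1:64121390-64121639 on the minus strand. The Klf6 start is the outer end of the gene, whereas the Klf7 start lies 956 bases inside the outer bounds of its gene, so this window belongs to an internal start and not to the outermost one.
Klf6: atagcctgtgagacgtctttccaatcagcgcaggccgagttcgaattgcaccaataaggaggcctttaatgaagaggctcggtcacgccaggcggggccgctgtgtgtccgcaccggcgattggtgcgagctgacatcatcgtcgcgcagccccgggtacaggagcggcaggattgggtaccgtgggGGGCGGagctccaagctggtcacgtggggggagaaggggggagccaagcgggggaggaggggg
Klf7: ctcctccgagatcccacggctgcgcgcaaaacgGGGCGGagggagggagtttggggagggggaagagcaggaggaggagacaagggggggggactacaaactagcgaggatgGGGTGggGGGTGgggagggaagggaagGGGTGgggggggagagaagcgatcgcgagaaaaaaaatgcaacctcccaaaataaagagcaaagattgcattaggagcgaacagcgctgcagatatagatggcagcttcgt
The Klf6 window holds 1 GC box and 0 CACCC boxes. The Klf7 window holds 3 CACCC boxes and 1 GC box. Among 32851 promoter windows of the same length, 52.0% hold a CACCC box and 32.7% a GC box. Klf6 also has 4 CCAAT boxes (CCAAT, in 33.8% of windows) and 1 E-box (CACGTG, in 6.02%), neither of which occurs in the Klf7 window. Both windows lack the cAMP response element TGACGTCA (in 1.55%), the AP-1 site TGANTCA (6.75%), the TATA box TATAAA (12.4%), the forkhead site GTAAACA (3.17%) and the cell cycle element TTTGAA (16.0%). The MEF2 site (1.69%) and the CArG box (1.47%) were not found in either window. GC content was 64.8% for Klf6 and 59.2% for Klf7, against a median of 52.4%. These matches describe letters only.

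The first group of factors, Klf2, Klf4, Klf5, Klf6 and Klf7, act largely as activators and can recruit acetyltransferases such as p300. Klf6, known as a factor of wound and injury responses and as a tumour suppressor, had log2 levels of 8.12, 8.23 and 8.27 on the untreated arrays. It measured 8.36 and 8.18 after 12 h, 8.64, 8.29 and 8.50 after 24 h, 8.55 and 8.79 at 48 h, and 9.21 and 8.99 at 96 h. All arrays at 24, 48 and 96 h lay above every untreated array, and the 12 h arrays overlapped with untreated. The order of the group means followed time, from 8.21 ± 0.08 (SD, n = 3) in untreated cells through 8.27 ± 0.13 (n = 2), 8.48 ± 0.18 (n = 3) and 8.67 ± 0.17 (n = 2) to 9.10 ± 0.16 (n = 2). At 96 h the rise was 0.89 ± 0.12 log2 units (SE, limma adjusted p = 0.00057), with a 95% confidence interval of 0.62 to 1.16. Its change at 48 h was 0.46 ± 0.12 (adjusted p = 0.0578) and at 24 h 0.27 ± 0.11 (adjusted p = 0.601), neither called. The 48 h value was called when arrays were centred on their medians (0.52, adjusted p = 0.0287), when genes with a mean under 5 were left out (adjusted p = 0.0409) and with array weights (0.50, adjusted p = 0.0174).

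Klf7, known for its part in the growth of neurons, had levels of 8.03, 8.14 and 7.83 in untreated cells. It measured 8.03 and 7.93 after 12 h, 8.12, 8.25 and 8.0 after 24 h, 8.24 and 8.38 at 48 h, and 8.62 and 8.44 at 96 h. The 48 h and 96 h arrays lay above all untreated arrays, and the earlier ones were mixed with them. Means were 8.0 ± 0.16 (SD, n = 3) in untreated cells, 7.98 ± 0.07 (n = 2) at 12 h, 8.12 ± 0.13 (n = 3) at 24 h, 8.31 ± 0.10 (n = 2) at 48 h and 8.53 ± 0.12 (n = 2) at 96 h. The rise at 96 h was 0.53 ± 0.11 (SE, adjusted p = 0.00556), or 1.45-fold, and the change at 48 h was 0.32 ± 0.11 (adjusted p = 0.133). Without 96 h replicate 1 the call was lost, at 0.45 (adjusted p = 0.0621).

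Klf5, a factor tied to proliferation in gut epithelium and smooth muscle, had its lowest levels at 12 h and 96 h. Its levels were 5.82, 5.73 and 5.80 in untreated cells, 5.59 and 5.52 after 12 h, 6.0, 5.75 and 5.90 after 24 h, 5.75 and 5.81 at 48 h, and 5.63 and 5.29 at 96 h. Both the 12 h and the 96 h arrays lay below all untreated arrays, and those at 24 h and 48 h did not. At 96 h Klf5 fell by 0.32 ± 0.10 (SE, adjusted p = 0.0472), or 1.25-fold. At 12 h the value was -0.23 ± 0.10 with an unadjusted p of 0.0486 (limma adjusted p = 0.989). The step from 12 h to 24 h was 0.32 ± 0.10 with an unadjusted p of 0.00974 (adjusted p = 1.00). The call at 96 h ended under 9 of 15 other settings, among them the removal of any 1 untreated array (adjusted p = 0.121, 0.0762 and 0.102). Without 96 h replicate 2 the change was -0.15 (adjusted p = 0.397).

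Klf4, a regulator of epithelial barrier formation and a reprogramming factor, had levels of 8.59, 8.57 and 8.64 in untreated cells. It measured 8.77 and 8.49 after 12 h, 8.67, 8.43 and 8.69 after 24 h, 8.89 and 8.64 at 48 h, and 9.11 and 8.73 at 96 h. The 96 h arrays lay above all untreated arrays but differed from each other by more than the untreated arrays did. The change at 96 h was 0.31 ± 0.13 (adjusted p = 0.150), with an interval of 0.01 to 0.62.

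Klf2, which keeps T cells quiescent and endothelium responsive to flow, measured 5.33, 5.35 and 5.48 in untreated cells. It measured 5.45 and 5.75 after 12 h, 5.65, 5.55 and 5.64 after 24 h, 5.31 and 5.70 at 48 h, and 5.71 and 5.06 at 96 h. The 24 h arrays lay above all untreated arrays, with a change of 0.23 ± 0.16 (adjusted p = 0.764). The pair at 96 h stood on either side of the untreated arrays, and the mean change there was 0.00 ± 0.18 with an interval of -0.41 to 0.40. Without 96 h replicate 2 it was 0.32 (adjusted p = 0.258).

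Klf3 represents the members that bind the corepressor CtBP. Its levels were 8.21, 8.17 and 8.04 in untreated cells, 8.22 and 8.02 after 12 h, 8.18, 8.02 and 8.11 after 24 h, 8.11 and 7.99 at 48 h, and 7.98 and 7.89 at 96 h. The 96 h arrays lay below all others, 7.99 at 48 h being the nearest. Group means went down in the order of time from 8.14 ± 0.09 (SD, n = 3) to 7.93 ± 0.07 (n = 2). The change at 96 h was -0.21 ± 0.08 (adjusted p = 0.120), with an interval of -0.39 to -0.02.

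The last group, Klf9, Klf10, Klf11 and Klf13, are known to bind the Sin3a corepressor. Klf9, a direct target of glucocorticoid and thyroid hormone receptors, had levels of 6.86, 7.03 and 7.47 in untreated cells. It measured 7.42 and 7.11 after 12 h, 7.27, 6.94 and 7.52 after 24 h, 7.34 and 7.39 at 48 h, and 7.90 and 7.52 at 96 h. The 96 h group was the only one with all its arrays above all untreated arrays, with 7.52 on its lower array against 7.47 on untreated replicate 3. The change at 96 h was 0.59 ± 0.21 (adjusted p = 0.0772), 1.51-fold, with an interval of 0.12 to 1.07. Klf9 also had the widest spread among untreated arrays but for Klf10, with SDs of 0.31 and 0.32. Without untreated replicate 3 the Klf9 change was 0.77 and was called (adjusted p = 0.0233). That array, 12 h replicate 2 and 24 h replicate 3 deviated from their group means together across genes (r of 0.209 to 0.581). The 12 h group had 2 arrays, whose deviations mirror each other, so which of them stood apart cannot be told. With all 3 left out the value was the same 0.77, because only untreated replicate 3 among them enters that difference. That array had the highest untreated Klf9 level, so leaving it out had to raise the change. Of the 10 factors, 9 had a mean level of at least 5. When only genes at or above that level were tested, 4 of those 9 were called at 96 h (Klf5, Klf6, Klf7 and Klf9), against 48.6% of such genes.

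Klf10, an early gene of TGF-beta signalling, measured 5.51, 5.14 and 5.78 in untreated cells, 5.41 and 5.84 after 12 h, 5.88, 5.60 and 5.74 after 24 h, 5.74 and 5.61 at 48 h, and 5.33 and 4.99 at 96 h. The 96 h arrays overlapped with untreated but lay below all arrays of 12, 24 and 48 h. Its change at 96 h was -0.32 ± 0.19 from untreated (adjusted p = 0.336) and -0.52 ± 0.21 from 48 h (adjusted p = 0.190).

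Klf11, the closest relative of Klf10 in this set and also inducible by TGF-beta, measured 5.12, 5.14 and 5.38 in untreated cells and 5.19 and 5.17 at 12 h. It measured 5.23, 5.07 and 5.35 at 24 h, 5.04 and 5.01 at 48 h, and 4.98 and 5.10 at 96 h. The 48 h and 96 h arrays lay below all untreated arrays, with changes of -0.19 ± 0.10 (adjusted p = 0.324) and -0.17 ± 0.10 (adjusted p = 0.283).

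Klf13, a regulator of the chemokine RANTES in T cells, measured 4.39 on all 3 untreated arrays, 4.51 and 4.31 after 12 h, 4.57, 4.14 and 4.57 after 24 h, 4.52 and 4.35 at 48 h, and 4.20 and 4.16 at 96 h. These values lie close to the array medians of 4.13 to 4.20, where background makes up much of the signal and differences are compressed. The 96 h arrays were the only group to lie entirely below the untreated arrays, with a change of -0.21 ± 0.12 (adjusted p = 0.333). With only the 2 groups compared in the fit it was called (adjusted p = 0.0408). Those groups had SDs of 0.002 and 0.025, and that fit leaves out wider groups such as 24 h (SD 0.25).

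**Figure D2:**
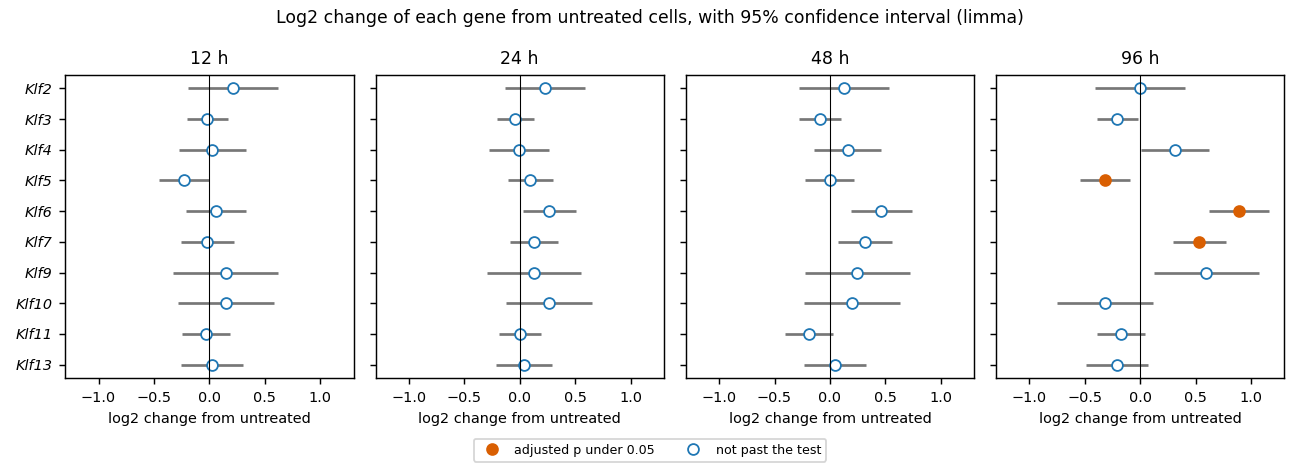
Log2 change from untreated cells (points) with its 95% confidence interval from limma (bars) for each factor, in 1 panel per time of DFMO. No factor is called at 12, 24 or 48 h; at 96 h Klf6 (0.89), Klf7 (0.53) and Klf5 (-0.32) are called, and the interval of Klf9 (0.59) reaches from 0.12 to 1.07.

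Counting complete separation from the untreated arrays, 3 of 10 factors separated at 48 h, where 40.9% of all genes did, and 8 of 10 at 96 h, where 44.4% did. At 48 h these were Klf6, Klf7 and Klf11. At 96 h Klf2 and Klf10 alone overlapped. The shares cover genes of every level, whereas 9 of the 10 factors had a mean of at least 5. Separation among genes of that level was not computed, so 8 of 10 cannot be read as an excess.

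From each time to the next no factor was called, in comparisons that called 0% (24 h against 12 h), 1.67% (48 h against 24 h) and 8.64% (96 h against 48 h) of all genes. The 333 genes called at 48 h against 24 h became 92 and 67 with replicate 1 or 2 of 48 h removed, and 214 with replicate 3 of 24 h removed. The 1723 called at 96 h against 48 h became 748 and 1060 without 48 h replicate 1 or 2, and 1007 and 993 without 96 h replicate 1 or 2. The Klf6 step from 48 h to 96 h was 0.43 ± 0.13 (adjusted p = 0.0845), so neighbouring times of Klf6 and Klf7 did not differ past the test. Limma's F test over the 4 times called Klf6 (adjusted p = 0.00423) and Klf7 (adjusted p = 0.0264), where 17% of all genes were called, and gave Klf5 an adjusted p of 0.0659. Contrasts between times further apart were added after the values had been seen. At 48 h against 12 h no factor was called (2.46% of all genes). At 96 h against 12 h, Klf6 and Klf7 were higher (19.5% of all genes), and at 96 h against 24 h, Klf6 and Klf7 were higher and Klf5 lower (20.8%).

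Some factors followed each other over the 12 arrays, which share the 5 groups, so the correlations describe the same few time points. The highest Pearson r between factors were 0.84 for Klf6 with Klf7, 0.81 for Klf4 with Klf9 and 0.80 for Klf6 with Klf9. The lowest was -0.82, for Klf7 with Klf11. For the 4 factors whose group means spanned at least 0.5 log2 units, the most similar genes were sought among 1315 genes spanning at least 1 log2 unit. Htr2a, a serotonin receptor (r = 0.97), and Ccdc91 (r = 0.96) were most like Klf6. Tsc1, a brake on mTORC1 (r = 0.97), and Ppm1l, a protein phosphatase (r = 0.97), were most like Klf7. Rabac1 (r = 0.89) and Emc10 (r = 0.88) were most like Klf9. Hint1 (r = 0.87) and Emp3 (r = 0.86) were most like Klf10.

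**Figure D3:**
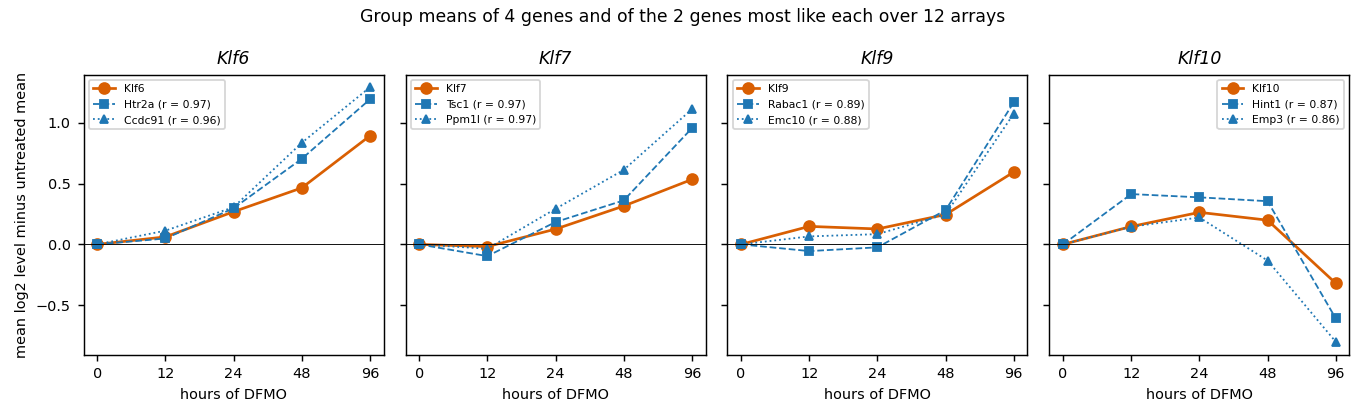
Group mean log2 level minus the untreated mean for 4 factors (circles) and for the 2 genes most like each over 12 arrays (squares and triangles), against hours of DFMO drawn at even spacing. At 96 h Htr2a (1.19) and Ccdc91 (1.29) are further from their untreated means than Klf6 (0.89), and Hint1 (-0.61), Emp3 (-0.80) and Klf10 (-0.32) lie below theirs.

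Of 16 other KLF and SP genes, 15 were measured, and Sp2 had no cluster named by its symbol alone. At 48 h 0 of 15 were called, and at 96 h 1 rose and 1 fell, against 11.8% higher and 10.1% lower among all genes, with a median change of 0.05. All but Klf16, Sp1 and Sp3 had low untreated means, from 3.33 (Sp9) to 4.22 (Klf14). There background makes up much of the signal and differences are compressed, so a lack of calls says little about them. Sp3, a widely expressed SP factor, rose by 0.29 ± 0.06 at 96 h (adjusted p = 0.00473). That value was 0.13 (adjusted p = 0.128) when the gene's several clusters were averaged, and the call was lost with trended, robust moderation (adjusted p = 0.0683). Klf16, a Sin3a-binding repressor like Klf9, fell by 0.50 ± 0.13 (adjusted p = 0.0191). Its call was lost with untreated replicate 1 removed (adjusted p = 0.0526), and likewise 96 h replicate 1 (0.123) or 96 h replicate 2 (0.0681).

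Among cofactors that the factors recruit or are degraded by, more fell than rose. Of 14 listed, 13 were measured, and Ncor1 had no cluster named by its symbol alone. At 48 h 0 were called, and at 96 h 2 rose and 6 fell, with a median change of -0.29 against 0.00 over all genes. Of all genes, 11.8% were called higher and 10.1% lower at that time, and 48.6% of those with a mean of at least 5 were called in either direction. The histone deacetylases Hdac3, Hdac2 and Hdac1 were all lower, with changes of -0.56 ± 0.06 (adjusted p = 0.000191), -0.53 ± 0.08 (adjusted p = 0.0015) and -0.46 ± 0.07 (adjusted p = 0.000938). Sin3a, the scaffold that brings Hdac1 and Hdac2 to Klf9 and its relatives, fell by 0.47 ± 0.10 (adjusted p = 0.00586), a call lost without 96 h replicate 1 (adjusted p = 0.0676). Fhl3, a LIM-domain partner of Klf3, fell by 0.96 ± 0.19 (adjusted p = 0.00498), a call lost without 96 h replicate 2 (adjusted p = 0.0581). Sin3b, on the same list and named after its value was seen, went the other way from Sin3a. Its mean was 6.85 in untreated cells and 7.32 at 96 h, and it was not called. Also called, and named after their values were seen, were Ctbp2 and Fbxw7. Ctbp2, a CtBP gene, had means of 6.94 in untreated cells and 6.32 at 96 h. Fbxw7 had means of 5.01 and 5.37. The Ctbp2 call was lost under 2 of 15 other settings and the Fbxw7 call under 7. Ep300, the gene of p300, rose by 0.71 ± 0.21 (adjusted p = 0.0343). The Ep300 call was lost without any 1 of the 5 arrays compared, with adjusted p from 0.0505 to 0.201.

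Genes that act upstream of the factors were called in 1 direction at 96 h. All 19 listed were measured, and 6 rose and 0 fell, with a median change of 0.15 against 0.00 over all genes. The shares of all genes called were again 11.8% higher and 10.1% lower, or 48.6% in either direction at a mean of at least 5. The MAP kinase Mapk7 (ERK5), which induces Klf2 and Klf4 through MEF2 factors, rose by 0.90 ± 0.07 (adjusted p = 1.63e-05). Mef2d rose by 0.78 ± 0.11 (adjusted p = 0.000841), or by 0.47 when its clusters were averaged, and Mef2a by 0.64 ± 0.14 (adjusted p = 0.0071). Foxo3, a forkhead factor restrained by growth factor signalling, rose by 1.09 ± 0.10 (adjusted p = 4.82e-05). Creb1, the cAMP response factor, rose by 0.39 ± 0.08 (adjusted p = 0.00707), a call lost without 96 h replicate 1 (adjusted p = 0.0765). The remaining one, named after its value was seen, was the glucocorticoid receptor gene Nr3c1, at 0.31 ± 0.07 (adjusted p = 0.0084). Its call was lost without 96 h replicate 1 (adjusted p = 0.0693).

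At 48 h 1 upstream gene rose and 2 fell. Mapk7 was already higher, by 0.28 ± 0.07 (adjusted p = 0.0431), a call lost under 12 of 15 other settings. Mef2c fell by 0.82 ± 0.15 (adjusted p = 0.0158), which was lost without 48 h replicate 1 (-0.58, adjusted p = 0.132) and without untreated replicate 1 (adjusted p = 0.0521). Smad4, the shared partner of TGF-beta signalling and named after its value was seen, fell by 0.45 ± 0.10 (adjusted p = 0.0331). The Smad4 call was lost without untreated replicate 2, untreated replicate 3 or either 48 h array, with adjusted p from 0.079 to 0.199.

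Genes reported as targets of these factors changed in both directions. Of 20 listed, 18 were measured, and Cdkn1a and Ccnb1 had no cluster named by their symbol alone. At 48 h 0 rose and 1 fell, and at 96 h 3 rose and 2 fell, against 11.8% and 10.1% of all genes, with a median change of 0.01. Ccne1, the gene of cyclin E1 that drives entry into S phase, fell by 0.96 ± 0.14 at 48 h (adjusted p = 0.0059). At 96 h it fell by 3.04 ± 0.14 (adjusted p = 6.56e-07). The 48 h call was lost without 48 h replicate 2 (adjusted p = 0.0571). Pdgfa, a growth factor chain, rose by 1.17 ± 0.14 (adjusted p = 0.000231) and Maoa, monoamine oxidase A, by 0.63 ± 0.09 (adjusted p = 0.001).

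Lgals3, the gene of galectin-3, rose by 0.65 ± 0.15 at 96 h (adjusted p = 0.0118), and either 96 h array alone did not keep the call (adjusted p = 0.0601 and 0.0777). Col1a1, a fibrillar collagen chain that is also among the fibroblast markers, fell by 0.97 ± 0.27 (adjusted p = 0.0285). That call was lost when any of these was removed: untreated replicate 1 (adjusted p = 0.0686), untreated replicate 2 (0.0902) or 96 h replicate 2 (-0.66, adjusted p = 0.247).

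**Figure D4:**
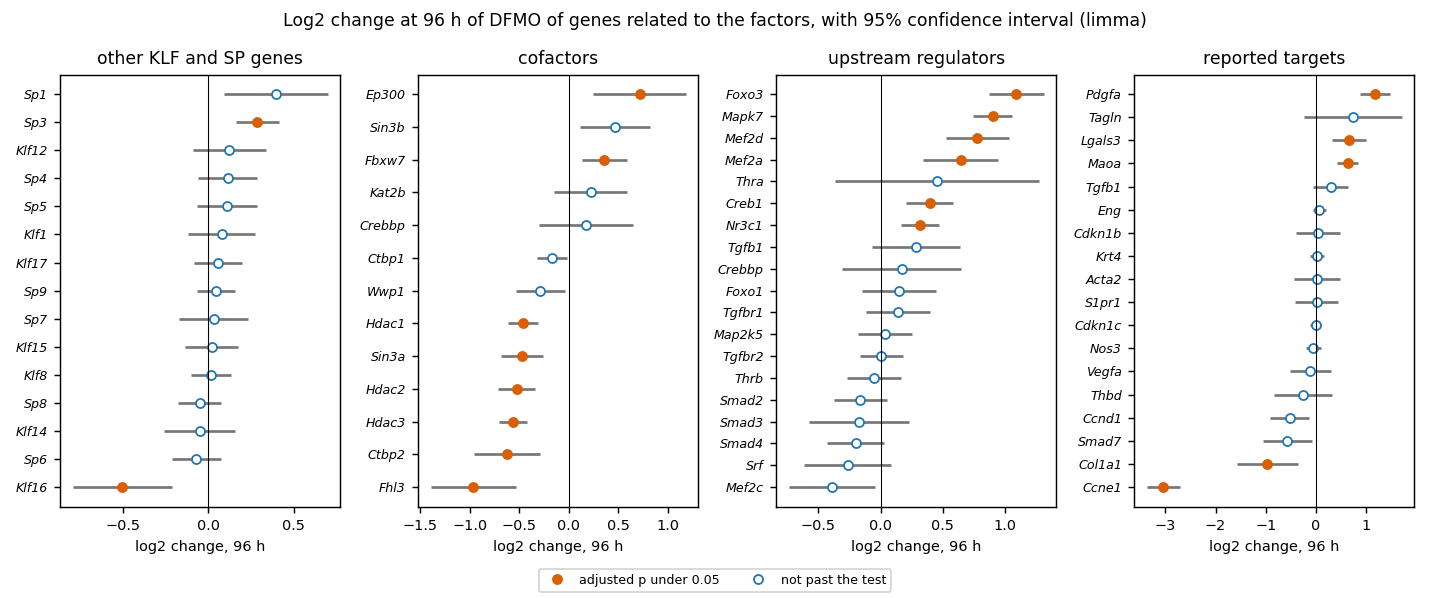
Log2 change at 96 h of DFMO against untreated cells (points) with its 95% confidence interval from limma (bars) for other KLF and SP genes, cofactors, upstream regulators and reported targets, each panel on its own axis. Filled points passed the test. Among 15 relatives 1 rose and 1 fell, and among 13 cofactors 2 rose and 6 fell. Among 19 upstream genes 6 rose and 0 fell, and among 18 targets 3 rose and 2 fell. Of all genes, 11.8% were called higher and 10.1% lower. Of genes with a mean of at least 5, 48.6% were called in either direction. Ccne1 (-3.04) is furthest from 0.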

How the data were processed

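RNA of 12 samples was measured on whole-transcript arrays, and the authors deposited 1 table of log2 values for 35399 transcript clusters, running from 2.53 to 13.18. RMA and Partek made these values, per the submitters' processing notes, which give no versions. RMA corrects background, forces the arrays to 1 distribution by quantiles and summarises probes, so a shift of all transcripts would be hidden and low levels are compressed. No source used here names a genome build for the array. The number of arrays limits the precision.

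Clusters were named through the platform annotation: 21789 had 1 symbol, 1621 several and 11989 none. A gene was represented by its cluster with the highest mean among those with 1 symbol, which left 19938 genes. Listed genes that were not measured had no such cluster. Whether a cluster with several symbols covers them was not examined. All 12 arrays entered 1 model with a mean for each group (limma 3.58.1, functions lmFit, contrasts.fit and eBayes, under R 4.3.3). Two-sided p-values were adjusted by the Benjamini-Hochberg method over all genes of a comparison, with calls under 0.05. SE is limma's, and folds come from the log2 change. The fit was tested on simulated data with independent noise and added changes larger than those called for the factors. That test does not speak to changes of their size or to arrays that deviate together.

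The 10 factors, the 9 lists and the tests were chosen with earlier results of these data known. All 10 factors were named, with up to 6 called genes per list of relatives, cofactors, upstream genes and targets, by smallest F test p. Genes said to be named after their values were seen came on top of these. Same-number arrays deviated together for 24 h against untreated (r of 0.153, 0.287 and 0.581), as did some of unlike number (up to 0.235), and with the number as a block 0 factors were called there too. Alternatives covered centring, filters, moderation, array weights, the samples in the fit, blocks, the mean of a gene's clusters and each array left out. Promoter windows came from RefSeq on GRCm38.p6 for 8 of 10 factors, searched with Python 3.11.15 and pandas 2.3.3, and figures were drawn with matplotlib 3.10.9.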

Additional observations from a re-analysis of the deposited data

Results flagged for a closer look

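Klf6 and Klf7 at 96 h differed from 12 h and from 24 h, and Klf5 at 96 h from 24 h, by a test of the difference itself, in contrasts added after the values had been seen. Against 48 h none of them passed (adjusted p = 0.0845 for Klf6, 0.335 for Klf7 and 0.122 for Klf5), nor did Klf5 against 12 h (-0.09, adjusted p = 0.673). Klf6 was higher at 96 h than at 12 h by 0.83 log2 units (limma adjusted p = 0.00185), and no other setting ended that call. It was higher at 96 h than at 24 h by 0.62 (adjusted p = 0.00494), which was lost without 96 h replicate 1 (0.51, adjusted p = 0.0572).

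Klf7 was higher at 96 h than at 12 h by 0.55 (adjusted p = 0.00899), a call lost without 12 h replicate 2 (0.50, adjusted p = 0.0644) or 96 h replicate 1 (0.46, adjusted p = 0.0733). Against 24 h it was higher by 0.41 (adjusted p = 0.0233), and this ended without 24 h replicate 1, 24 h replicate 3 or 96 h replicate 1, with adjusted p from 0.056 to 0.187, and with only the groups compared in the fit (adjusted p = 0.0507).

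Klf5 was lower at 96 h than at 24 h, by -0.42 (adjusted p = 0.0149). The call was lost in 3 settings: without 96 h replicate 2 (-0.25, adjusted p = 0.129), with only the groups compared in the fit (adjusted p = 0.0950) and with the 3 arrays that deviated together left out (adjusted p = 0.0704).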

How the results depend on the processing

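Klf6 at 96 h kept its call under all 15 other settings, with changes from 0.78 to 1.01 and adjusted p from 0.000192 to 0.00869. Of 1116 values of the 10 factors under other settings, 20 lost a call, 16 gained one, 13 without a call changed sign and 0 called values reversed. At 48 h the count of called factors was 1 instead of 0 with arrays centred on their medians, with genes of a mean of at least 5 only, and with array weights. Those settings called 1227, 1230 and 2194 genes at 48 h, against 1160 in the main fit. At 96 h array weights took the genes called from 4372 to 4799. The count of called factors there was 5 instead of 3, with Klf3 and Klf9 added. With the replicate number as a block it was 6 (4 higher and 2 lower), which added Klf3, Klf4 and Klf9, although same-number arrays of these groups deviated against each other (r of -0.136 and -0.080), and genes called went from 4372 to 4778. Klf9 at 96 h was 0.75 with that block (adjusted p = 0.00459) and 0.71 with array weights (adjusted p = 0.0190). At 96 h against 48 h, leaving out single arrays gave 0 to 1 called factors, the 1 being Klf5 without 96 h replicate 1 (-0.49, adjusted p = 0.0288). The F test called 1 factor instead of 2 with the 3 arrays that deviated together left out, and 1 to 3 with single arrays left out. At 96 h against untreated, single arrays left out gave 2 to 3. Array weights called 2194 genes at 48 h against 1160, and the count was 375 and 412 without 48 h replicate 1 or 2, and 755 and 642 without untreated replicate 1 or 2. At 48 h against 24 h the 333 genes became 61 with only these groups in the fit, 217 with all clusters tested, 521 with array weights, and 67 to 257 with single arrays left out. Groups of 2 or 3 arrays limit what can be called, and the low levels of Klf13 leave changes there hard to detect. The causes were not tested.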
